A study of Mus musculus with 6 samples.

Results

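The cytochrome P450 genes were read in mouse hearts by 121 array probes, which carry 97 gene names that start with Cyp and a number, out of 55681 probes other than controls. All probes with such a name were taken, whatever their values. RNA came from the hearts of male C57BL/6 mice, 3 fed a normal diet (ND, a standard chow) and 3 fed a high fat diet (HFD, 60% of kcal from fat). Feeding began at 4 weeks of age and went on for 4 months. Each heart was hybridised to 1 Agilent array in 1 colour, and no gene was altered in these mice by any label. The labels name heart tissue and do not say whether it was the whole heart or a piece, and each value mixes the cell types of that tissue. A level below is the log2 of the brightness of a probe relative to the 75th percentile of its array, and a difference is HFD minus ND on that scale. Each probe has its own brightness, so levels are compared between hearts and not between probes.

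Cytochromes P450 are haem enzymes that insert oxygen into fats, steroids, vitamins and foreign compounds. Most sit in the endoplasmic reticulum and take electrons from the reductase Por and from cytochrome b5, while a few work in mitochondria with ferredoxin. The liver carries the richest set. The heart and its vessels are known for the members that turn arachidonic acid into epoxides (CYP2C and CYP2J) or hydroxylated products (CYP4), for the retinoic acid hydroxylase *Cyp26b1*, and for CYP1 enzymes that are switched on by the aryl hydrocarbon receptor.

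The 6 arrays shared 1 slide. Its row 1 held HFD 1 and HFD 2, while HFD 3 was on row 2 beside the 3 ND hearts. In each heart 49.2% to 53.0% of all probes were well above background and no spot was saturated, and with 6 arrays it is their number that sets the precision. The spike-in slope of HFD 2 (0.896) was the only 1 of the 6 outside the range that the software accepts. The hearts did not have the same tissue makeup by their markers. The 6 genes listed for heart muscle cells were well above background in all 6 hearts, whereas 3 of 4 lung epithelium genes were so in none. Of the 5 genes of the hepatocyte list, *Alb*, *Apoa1* and *Fgb* were so in none, while *Ttr* (−0.86) and both probes of *Serpina1a* (0.75 and 0.26) were so in all hearts and differed between the diets at an unadjusted limma p below 0.05. White adipocyte markers were low in HFD 2, with a summed level of 0.314 times the percentile against 2.45 to 6.28 in the other hearts. Smooth muscle markers were high in HFD 1, with a summed level of 192 against 62.2 to 95.2. Of the brown adipocyte list, *Ucp1* was well above background in HFD 1 only (−0.53, against −7.17 to −6.77 in the other hearts). *Cidea* and *Ppargc1a* were so in all hearts, and of the 3 tested probes of this list that of *Cidea* was called higher (0.33, SE 0.09), against 5.24% of all probes tested. Of the 5 fibroblast probes that of *Pdgfra* was called lower (−0.30, SE 0.10), against 6.63% of all probes tested. The other fibroblast probes lay between −0.06 and 0.13. The 4 atrial markers ran from 56.2 in HFD 2 to 1149 in HFD 1. The summed erythroid level did not overlap between the diets, at 576 to 735 in ND and 367 to 514 in HFD. Of its 4 probes 3 were called lower (*Ahsp* −1.35, *Alas2* −0.64, *Hbb-b1* −0.55), against 6.63% of all probes tested. The part of erythroid RNA in the cytochrome P450 readings, which were mostly lower where called, was not tested.

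Of the 97 genes, 33 had at least 1 probe well above background in all 6 hearts and 42 had none in any heart. Another 22 genes reached that mark in some hearts only. By probe, 37 of 121 were well above background everywhere and 57 nowhere, and single ND hearts had 44, 48 and 49 such probes against 49, 45 and 50 for the HFD hearts. This put 36.4% to 41.3% of the cytochrome P450 probes above background in a heart. The classes differed widely. None of the 11 CYP3A probes, the liver and gut subfamily known for drug breakdown, was well above background in all hearts, and *Cyp3a13* and *Cyp3a59* were so in 1 heart each. Among the sterol and bile acid enzymes 5 of 7 genes were so in all hearts, and *Cyp7a1* and *Cyp8b1*, enzymes of bile acid synthesis in the liver, in none. CYP4 had 8 of 20 genes in all hearts, CYP2C and CYP2J together 5 of 20, and the other CYP2 subfamilies 9 of 26. The arachidonic acid epoxygenases *Cyp2c29* and *Cyp2c44* were not well above background in any heart.

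**Figure D1:**
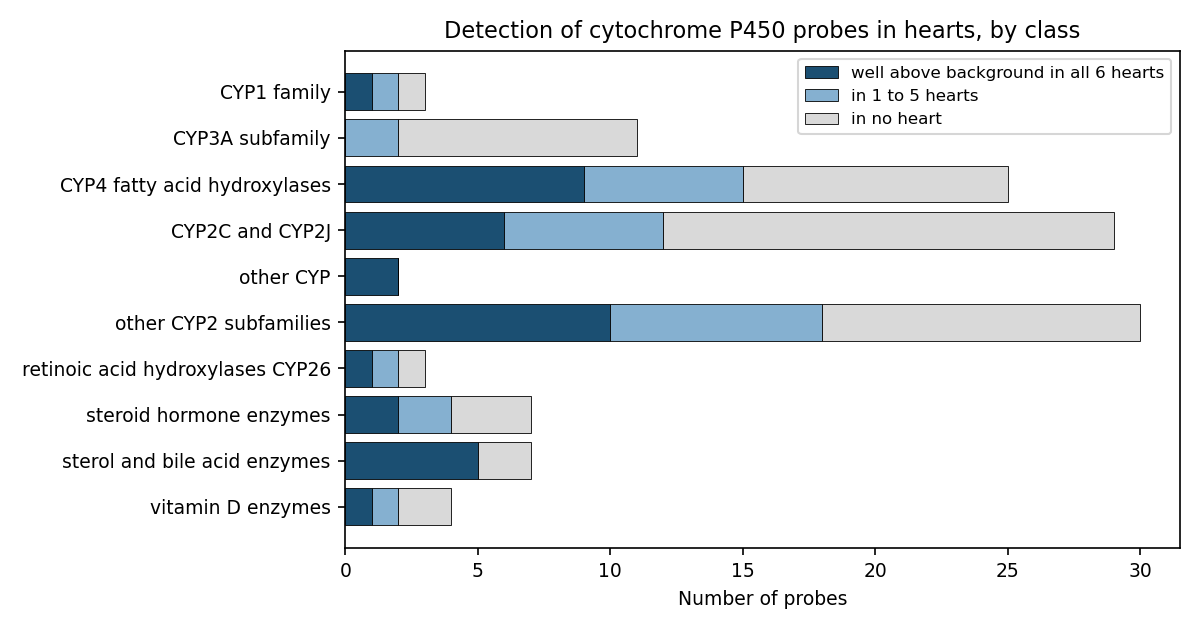
Number of probes (horizontal axis) in each class of cytochrome P450 genes (rows), split by whether the probe was well above background in all 6 hearts, in 1 to 5 or in none. CYP3A has no dark segment among its 11 probes, and the sterol and bile acid enzymes have 5 dark and 2 grey.

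The comparison of HFD with ND asked which of these genes moved with the diet, and 45 probes of 39 genes were bright enough to be tested, 8 of them through 1 diet only. The 8 entered because every heart of that diet was above background, so their differences were favoured by the choice. No cytochrome P450 probe passed the Benjamini-Hochberg adjustment in limma, where 4 of all 27590 probes tested passed (0.0145%). At an unadjusted limma p below 0.05, the limit given in the study's methods, 8 of the 45 were called (17.8%), against 11.9% of all probes tested. Of these 8, 7 were lower in HFD, where 6.63% of all probes tested were called lower, and 1 was higher, where 5.24% were called higher. With probes averaged by gene, 6 of 39 genes were called, against 12.2% of all genes tested. The 8 probes lay in 7 genes. Lower in HFD were *Cyp1a1*, *Cyp4f14*, *Cyp4f18* by both of its probes, *Cyp2t4*, *Cyp2u1* by 1 of 2 probes and *Cyp26b1*, and higher was *Cyp4b1*. A difference of at least 2-fold beside that p was seen for *Cyp1a1* and *Cyp26b1* only, 2 of 45 against 0.613% of all probes tested. Of these, *Cyp1a1* was 1 of the 8 tested through 1 diet only. The hearts of the diets did not overlap for 12 of the 45 (26.7%), where 19% of all probes tested did not overlap, and HFD was the lower diet for 10 of the 12 (22.2% of the 45), where the share over all probes was 11.1%. The median difference was −0.04 over the 45 probes and −0.01 over all probes tested, and 35 of the 45 were within 0.5 of 0. With the slide row as a term, 5 of the 45 were called, where 7.74% of all probes tested were. With HFD 1 left out also 5 were called, where 11.8% of all probes tested were. The share over all probes thus fell with the row term as well, and the counts rest partly on single arrays. Within row 2 HFD 3 stands alone against the 3 ND hearts, and 6 were called on the assumption that HFD hearts vary as ND hearts do. The row term gives the same differences as row 2 alone, so both rest on HFD 3.

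**Figure D2:**
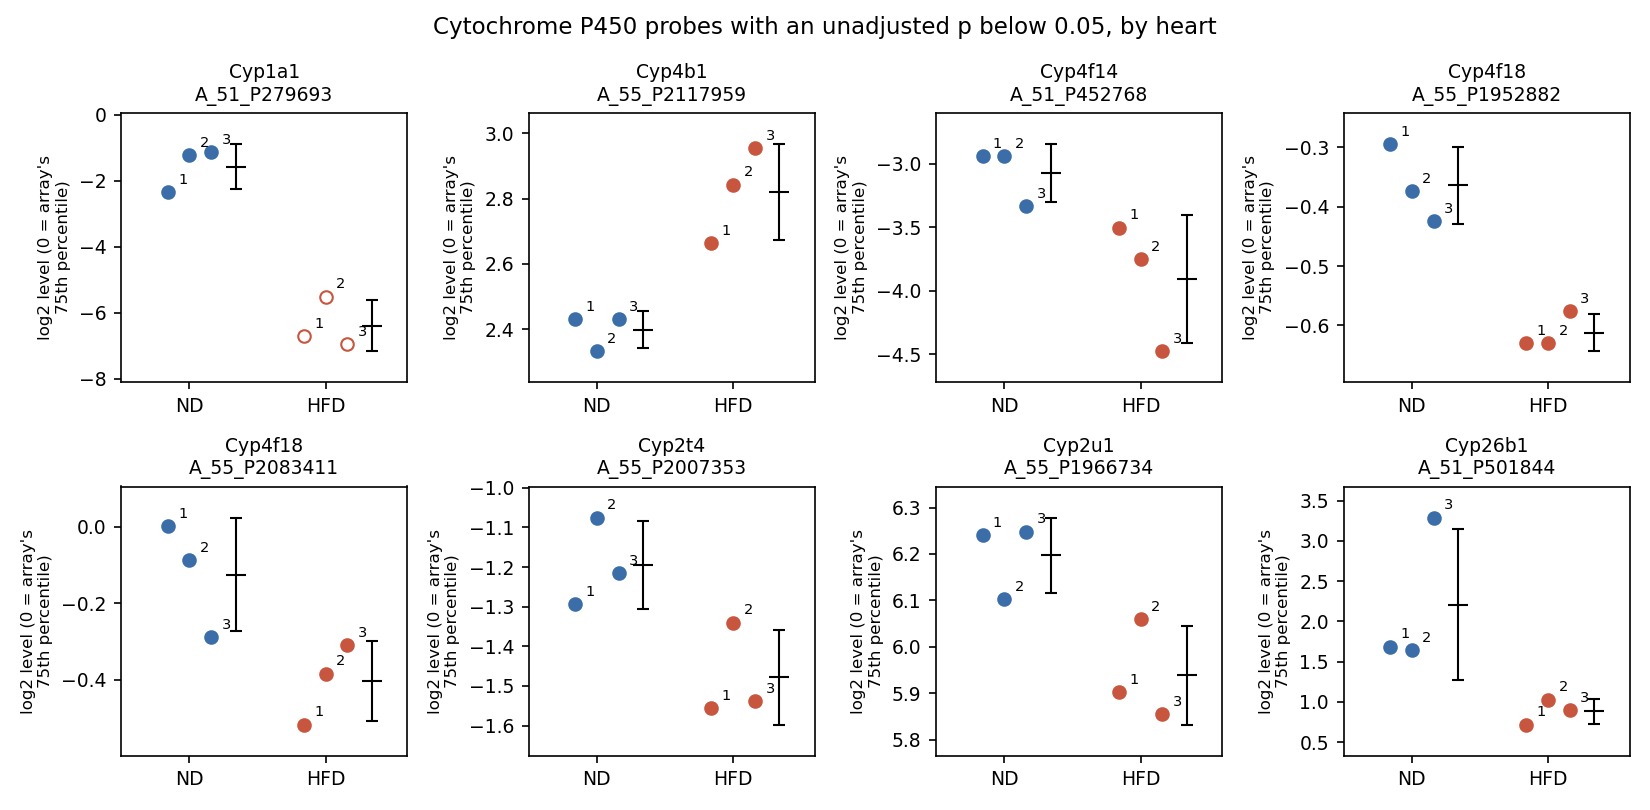
Level of each of the 8 probes with an unadjusted p below 0.05 in each heart (vertical axes, log2, 0 is the 75th percentile of the array; numbers are heart numbers), with ND in blue and HFD in red. Filled points were well above background, open points were not, and black bars give the mean ± SD of 3 hearts. In each panel every HFD heart lies on 1 side of every ND heart, and all 3 open points belong to Cyp1a1 in HFD.

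*Cyp1a1* was well above background in ND only. The enzyme oxidises polycyclic aromatic compounds and is induced in endothelium and many other tissues. Its only probe, A_51_P279693, lies on chromosome 9 from 57551535 to 57551594 (mm9). The level was −2.36, −1.23 and −1.14 in ND 1, 2 and 3 and −6.71, −5.52 and −6.96 in HFD 1, 2 and 3. The deposited intensities behind these levels ran from 95.4 through 206 to 217 for ND, and for HFD they were 4.94, 9.88 and 4.37. All 3 ND hearts were well above background and none of the HFD hearts was, with a wide gap between the diets. The probe was tested through ND only, so its difference and the p-values below were favoured by the choice. With HFD not well above background, the size is uncertain. Set against a floor for HFD, the mean of the ND hearts was 9.76-fold higher. On an HFD array the floor was its dimmest signal still well above background, unless the *Cyp1a1* spot itself was brighter. A brighter spot can still miss that mark. On HFD 2, with a floor of −4.74, the *Cyp3a59* probe A_55_P2028046 stood at −4.57 and was not well above background. The value carries no sampling error either, so it is not a strict lower limit. The fitted difference, from −1.57 ± 0.68 (SD, n = 3) in ND to −6.40 ± 0.77 in HFD, was −4.82 (SE 0.49, limma adjusted p = 0.0784). A two-sided exact permutation test gave p = 0.1, the smallest that 3 hearts against 3 allow. Leaving out each heart in turn gave −5.26 to −4.54, and HFD 3 alone against the ND hearts of its row gave −5.39. The limma fit with an intensity trend and robust variances put *Cyp1a1* past the adjustment (adjusted p = 0.0175), while the adjusted p over all settings ran from 0.0175 to 0.349. With normexp background correction, which compresses dim signals, the difference was −1.83. As in every result from bulk heart tissue, fewer cells of a type and less RNA per cell cannot be told apart. The summed level of the 5 endothelial markers was 36.7 to 40.2 in ND and 34.1 to 39.4 in HFD. Of their 6 tested probes, 1 of the 2 for *Kdr* was called lower (−0.26, SE 0.08, limma adjusted p = 0.329), against 6.63% of all probes tested. The part of cell makeup in the *Cyp1a1* result was not tested.

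The other CYP1 genes gave smaller readings. *Cyp1b1*, which acts on oestrogens and aromatic compounds in vessel wall and stromal cells, stood at 1.19, 1.01 and 0.83 in ND and 0.06, 0.79 and 0.70 in HFD. The diets did not overlap, but HFD 1 lay apart and the difference of −0.49 (95% interval −1.01 to 0.03, SE 0.21, limma adjusted p = 0.445) did not pass at the unadjusted limit. Without HFD 1 it was −0.27. *Cyp1a2*, a liver enzyme that breaks down caffeine, was not well above background in any heart and was not tested.

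Windows of 250 bases before the start of the 3 CYP1 genes are shown because the family is known for control by the aryl hydrocarbon receptor, whose binding core is GCGTG. They are RefSeq sequences of the GRCm38.p6 build, 5′ to 3′ on the strand of the gene, and capitals mark GCGTG on either strand (CACGC where it lies on the opposite one).
Cyp1a1 (chr9:57697363-57697612, plus strand): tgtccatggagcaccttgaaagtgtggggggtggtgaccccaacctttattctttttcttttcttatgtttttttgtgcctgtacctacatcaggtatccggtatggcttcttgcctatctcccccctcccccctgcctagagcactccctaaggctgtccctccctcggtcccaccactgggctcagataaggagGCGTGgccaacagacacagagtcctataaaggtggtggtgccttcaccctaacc
Cyp1a2 (chr9:57683656-57683905, minus strand): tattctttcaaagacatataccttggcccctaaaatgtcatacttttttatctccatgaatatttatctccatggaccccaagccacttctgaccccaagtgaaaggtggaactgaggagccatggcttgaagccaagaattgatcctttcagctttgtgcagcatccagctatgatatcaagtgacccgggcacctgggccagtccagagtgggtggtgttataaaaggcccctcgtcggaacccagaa
Cyp1b1 (chr17:79715062-79715311, minus strand): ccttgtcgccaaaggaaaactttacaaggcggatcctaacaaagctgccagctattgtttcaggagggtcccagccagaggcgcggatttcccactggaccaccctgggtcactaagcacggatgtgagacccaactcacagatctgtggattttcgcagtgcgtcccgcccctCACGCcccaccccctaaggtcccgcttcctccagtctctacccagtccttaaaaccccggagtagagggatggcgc
These letters occurred once each before *Cyp1a1*, beginning 54 bases before the start, and *Cyp1b1*, beginning 76 bases before it, and not in the window of *Cyp1a2*. Bases farther than 250 before the start were not searched. Whether the receptor binds at a marked stretch was not tested. Over all 32851 RefSeq windows of this length, 28.2% held GCGTG on either strand, and 16 of 81 windows of the cytochrome P450 genes did (19.8%), so a match in these letters is common and is a description only. These windows covered 71 of the member genes by symbol.

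The receptor and its further targets were read next to *Cyp1a1*. None of the 19 tested probes of the list of 13 genes was called at an unadjusted p below 0.05, and their median difference was 0.03. The receptor itself, *Ahr*, differed by −0.16 (SE 0.19, limma adjusted p = 0.790), and its partner *Arnt* by −0.07 and −0.08 in 2 probes. *Ahrr*, the repressor that the receptor induces, was at −0.04, −0.06 and 0.00 in ND and −0.82, 0.00 and −0.30 in HFD, a difference of −0.34 (SE 0.20, adjusted p = 0.575) in which the diets overlapped. The differences of the induced genes went both ways, with −0.06 and −0.03 for *Tiparp*, 0.28 for *Nqo1*, −0.05 and 0.10 for *Aldh3a1*, 0.48 for *Gsta1*, 0.57 for *Gsta2* and −0.28 for *Ugt1a6b*.

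The CYP4 enzymes hydroxylate fatty acids and eicosanoids at the far end of the chain, and 11 of their 25 probes were tested. *Cyp4b1*, which acts on shorter fatty acids and on foreign compounds, was the only cytochrome P450 gene called higher. Its level was 2.43, 2.33 and 2.43 in ND and 2.66, 2.84 and 2.95 in HFD, bright in every heart and without overlap. The difference was 0.42 (SE 0.09, 1.34-fold, limma adjusted p = 0.237) and stayed between 0.36 and 0.56, at an unadjusted p below 0.05, in all 19 other settings. *Cyp4f14*, known to inactivate leukotriene B4 in liver, was at −2.94, −2.94 and −3.33 in ND and −3.50, −3.75 and −4.48 in HFD. The HFD hearts were all lower, HFD 3 most of all, with a difference of −0.84 (SE 0.27, adjusted p = 0.329). It was −1.41 within row 2 and −0.56 without HFD 3, and −0.30 with normexp, and the call was lost without ND 1, without ND 2 and in the methods' t-test.

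*Cyp4f18* takes the same role in neutrophils and other myeloid cells and was called lower by both probes. Probe A_55_P1952882 stood at −0.29, −0.37 and −0.42 in ND and −0.63, −0.63 and −0.58 in HFD, a difference of −0.25 (SE 0.07, limma adjusted p = 0.285). Probe A_55_P2083411 stood at 0.00, −0.09 and −0.29 in ND and −0.52, −0.38 and −0.31 in HFD, a difference of −0.28 (SE 0.10, adjusted p = 0.390). The diets did not overlap in either, although ND 3 and HFD 3 nearly met in the latter. The probes lie on nearly the same bases of chromosome 8, from 74512382 to 74512441 and from 74512381 to 74512440 (mm9). They share a run of 29 bases, are not independent readings and count as 1 reading of the gene. HFD 3 against the ND hearts of its row gave −0.21 and −0.19. The macrophage list, which such cells partly share, had 1 of 7 probes called lower, against 6.63% of all probes tested. It was *Cd163* (−1.10), not well above background in HFD 2 and tested through ND, so its difference was favoured by the choice. The other probes differed by −0.17, −0.08 and −0.004 (*Csf1r*), 0.07 and 0.01 (*Emr1*) and 0.19 (*Cd68*). The summed level, set mostly by *Csf1r*, was 26.9 to 30.8 in ND and 22.4 to 27.4 in HFD. The part of the macrophage list in this result was not tested.

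The remaining CYP4 probes were not called. *Cyp4a10* and *Cyp4a31*, of the subfamily that the fatty acid receptor PPARA induces in liver, were read at the edge of the background. Of 3 probes for *Cyp4a31*, A_55_P2050628 was well above background in all HFD hearts and in no ND heart and was tested for that reason. Its fitted difference was 0.90 (SE 0.44, limma adjusted p = 0.495) and was not called. The levels of the diets overlapped, with ND 3 (−4.42) above HFD 2 (−4.53) and HFD 3 (−4.44). With dim ND spots raised to a floor, as for *Cyp1a1* in HFD, the mean was 1.53-fold higher in HFD. Given the overlap, that value is not a lower limit for an increase. The other probes of *Cyp4a31* were well above background in 1 heart and in none. Of 3 probes for *Cyp4a10*, A_51_P254895 was so in 5 of 6 hearts, with a difference of 0.44 (SE 0.39). Of its other probes, A_55_P2092030 was so in ND 2 only and lower in every HFD heart (−6.00 to −5.29) than in any ND heart (−5.15 to −4.45), and A_55_P2011111 was so in none. The tested probes of these 2 genes share a run of 34 bases, so each may take up the other's transcript. *Cyp4a14* was not well above background in any heart. *Cyp4f16*, at 0.14 (SE 0.07), was higher and *Cyp4f17*, at −0.21 (SE 0.09), lower in HFD without overlap, and *Cyp4f13*, *Cyp4f39* and *Cyp4v3* lay between −0.11 and 0.16.

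**Figure D3:**
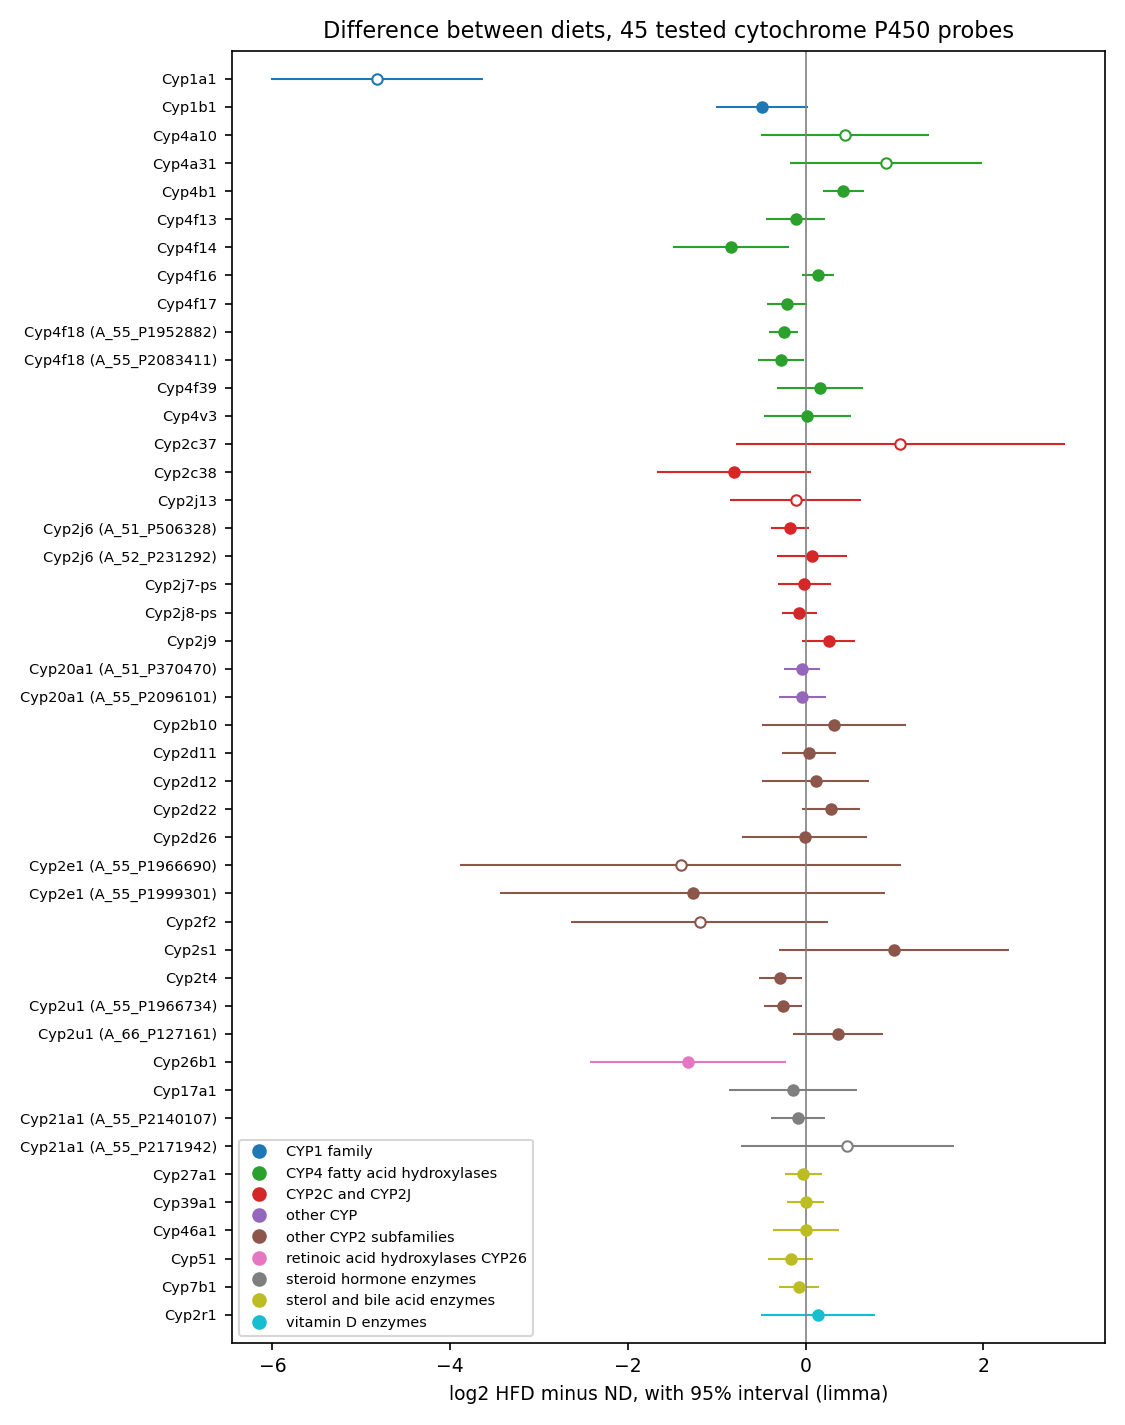
Difference between diets (horizontal axis, log2 HFD minus ND) with its 95% interval from limma for each of the 45 tested probes (rows), coloured by class. Open points mark probes that were not well above background in all 6 hearts. Most points lie within 0.5 of 0, the Cyp1a1 point at −4.82 stands far to the left, and the widest intervals belong to Cyp2e1, Cyp2c37 and Cyp2f2.

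Among the CYP2C and CYP2J epoxygenases, 8 of 29 probes were tested and none was called at an unadjusted p below 0.05. The CYP2J genes moved little: *Cyp2j6* differed by −0.18 (SE 0.09) and 0.07 (SE 0.16) in its 2 probes, *Cyp2j9* by 0.26 (SE 0.12), and *Cyp2j8-ps*, *Cyp2j7-ps* and *Cyp2j13* by −0.07, −0.01 and −0.11. *Cyp2c38* was at −2.14, −2.11 and −2.26 in ND and −2.66, −2.45 and −3.83 in HFD. Every HFD heart was below every ND heart, but HFD 3 stood far below the other two, and the difference of −0.81 (SE 0.35, limma adjusted p = 0.452) was −0.39 without HFD 3. It reached −1.65 within row 2, which holds HFD 3 alone for its diet. *Cyp2c37* was well above background in 1 ND heart and all HFD hearts and varied by more within ND (−6.12 to −3.26) than between the diets.

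Of the other CYP2 subfamilies 12 of 30 probes were tested, and 2 were called, both lower. *Cyp2t4* stood at −1.29, −1.07 and −1.21 in ND and −1.56, −1.34 and −1.54 in HFD, with ND 1 close to HFD 2. The difference was −0.28 (SE 0.10, limma adjusted p = 0.356), and the call was lost in 4 of the 6 settings without 1 heart. HFD 3 against the ND hearts of its row gave −0.34, and the call was lost with the slide row as a term. *Cyp2u1*, a long-chain fatty acid hydroxylase, was read by 2 probes that went opposite ways.

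Probe A_55_P1966734 of *Cyp2u1* was at 6.24, 6.10 and 6.25 in ND and 5.90, 6.06 and 5.86 in HFD, a difference of −0.26 (SE 0.09, limma adjusted p = 0.351). Probe A_66_P127161 was at −3.22, −3.27 and −3.56 in ND and −2.73, −2.80 and −3.42 in HFD, a difference of 0.37 (SE 0.21, adjusted p = 0.554). The diets were apart by a small gap in the former and overlapped in the latter, and the average of both probes gave 0.05. The former contains 16 copies of GT in a row, 32 of its 60 bases, where no other probe of these genes has a repeated pair of bases over more than 8. A stretch of 30 bases of it is shown for this repeat, in capitals.
Cyp2u1 probe A_55_P1966734, bases of the repeat and those before it: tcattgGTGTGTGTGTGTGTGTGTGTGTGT
What else in the genome matches this repeat was not analysed here, so its brightness cannot be assigned to *Cyp2u1* alone.

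Several CYP2 genes had wide intervals because of 1 heart. *Cyp2e1*, which oxidises ethanol and ketones and is found in liver and fat, was at −0.10, 0.97 and 1.04 in ND and 0.48, −2.67 and 0.29 in HFD by probe A_55_P1999301. Its other probe, A_55_P1966690, was at −2.25, −1.18 and −1.03 in ND and −1.53, −5.25 and −1.90 in HFD. This other probe was not well above background in HFD 2 and was tested through ND, so its difference was favoured by the choice. Both probes were low in HFD 2 and overlapped between the diets otherwise. The differences of −1.27 (SE 0.89) and −1.40 (SE 1.01) became −0.25 and −0.23 without HFD 2 (limma adjusted p = 0.805 and 0.837). *Cyp2f2*, an enzyme of airway club cells, was at −4.08, −2.85 and −2.99 in ND and −3.62, −5.67 and −4.21 in HFD. Its difference of −1.19 (SE 0.59, adjusted p = 0.5003) was −0.61 without HFD 2. The *Cyp2f2* probe was likewise not well above background in HFD 2 and was tested through ND. HFD 2 was also the heart with the lowest summed level of white adipocyte markers (0.314), and among these *Cfd* stood at −2.65 there against 0.80 to 2.39 elsewhere and *Adipoq* at −4.01 against −2.46 to −0.37. *Lep* was not well above background in any heart. Atrial markers were lowest in HFD 2 as well, at 56.2 against 198 to 1149 in the other hearts. Of the lung epithelium list only *Scgb1a1*, the club cell marker, was well above background in any heart, and it was so in 4. The part of fat or atrial tissue in these readings was not tested.

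*Cyp2s1*, an epithelial member, was at −4.37, −3.83 and −3.83 in ND and −1.81, −3.85 and −3.38 in HFD. HFD 1 alone was high, the diets overlapped, and the difference of 0.997 (SE 0.53, limma adjusted p = 0.528) was 0.39 without HFD 1. The smooth muscle markers were highest in the same heart (192 against at most 95.2), as were the atrial markers (1149 against at most 981). *Ucp1* was also highest there, at −0.53 against at most −6.77 in the other hearts. The part of any of these tissues in this reading was not tested. The CYP2D genes, kin of the human drug-metabolising enzyme, differed by −0.01 (*Cyp2d26*), 0.04 (*Cyp2d11*), 0.11 (*Cyp2d12*) and 0.28 (*Cyp2d22*), none of them called. *Cyp2b10*, the usual target of the receptor CAR, differed by 0.32 (SE 0.33), with the ND hearts spread from −0.73 to 0.65 and the HFD hearts within 0.27 to 0.31.

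**Figure D4:**
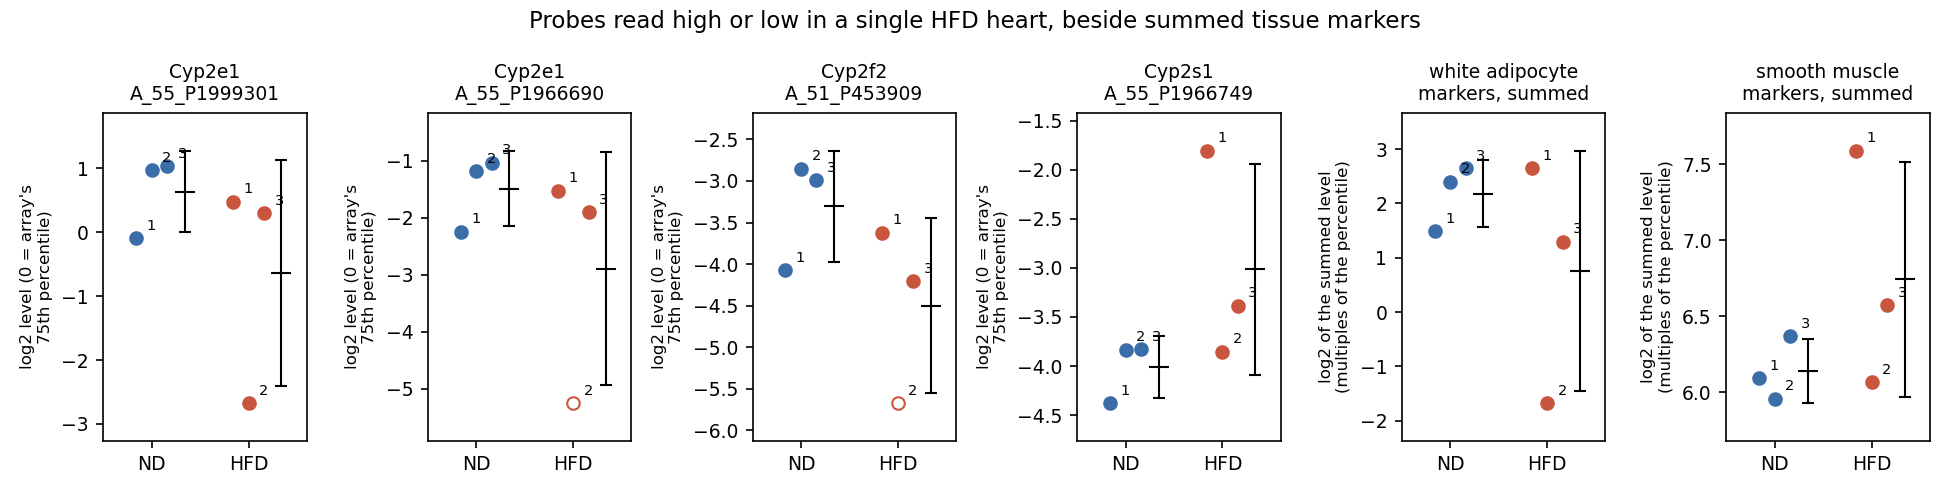
Levels per heart (vertical axes, log2, numbers are heart numbers, bars are mean ± SD of 3 hearts) of 4 probes whose reading stood apart in a single HFD heart, chosen after their values were seen, beside the log2 of the summed level of white adipocyte and smooth muscle markers. Cyp2e1, Cyp2f2 and the adipocyte markers are lowest in HFD 2, and Cyp2s1 and the smooth muscle markers are highest in HFD 1. Open points were not well above background.

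*Cyp26b1*, which degrades retinoic acid, was the second member at 2-fold. Its level was 1.69, 1.64 and 3.29 in ND and 0.72, 1.03 and 0.90 in HFD, and the deposited intensities were 1574, 1504 and 4666 for ND, with 848, 924 and 1013 for HFD. Every HFD heart was below every ND heart, and ND 3 lay far above the other ND hearts. The difference was −1.32 (SE 0.45, limma adjusted p = 0.356), which puts HFD at 39.9% of ND. Without ND 3 it was −0.78 (SE 0.12, limma adjusted p = 0.239), so that its size, but not its direction, rested on that heart. It was not called in the methods' t-test, with the slide row as a term or without any single HFD heart. HFD 3 against the ND hearts of its row gave −1.31. *Cyp26a1* was well above background in 2 hearts and *Cyp26c1* in none. Of the retinoid genes listed beside CYP26, none of 9 tested probes was called, and their median difference was −0.01. *Aldh1a1*, *Aldh1a2* and *Aldh1a3*, which make retinoic acid, differed by −0.01, 0.20 and 0.25, and *Dhrs3*, which returns retinal to retinol, by −0.23 (SE 0.11, adjusted p = 0.494).

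The enzymes of sterols, steroids and vitamin D were not called in any probe. Differences of the 5 sterol and bile acid genes were among the smallest, from −0.17 (*Cyp51*, of cholesterol synthesis, SE 0.10) to 0.01 (*Cyp46a1*, the cholesterol hydroxylase of neurons, SE 0.15). *Cyp27a1*, read by 10 spots on each array, differed by −0.03 (95% interval −0.23 to 0.18), and *Cyp7b1* and *Cyp39a1* by −0.07 and 0.00. The sterol synthesis genes beside *Cyp51* had 0 of 15 tested probes called and a median of 0.04. *Cyp11a1*, *Cyp11b1* and *Cyp11b2*, the mitochondrial enzymes of steroid and aldosterone synthesis, were not well above background in any heart, while *Cyp19a1*, aromatase, was so in 3. *Cyp17a1* differed by −0.14 (SE 0.29), and *Cyp21a1* by −0.09 (SE 0.12) and 0.47 (SE 0.49) in its 2 probes. *Cyp2r1*, the vitamin D hydroxylase of the first step, differed by 0.14 (SE 0.26), and *Cyp27b1* and *Cyp24a1*, which activate and degrade the vitamin, were not well above background in any heart. *Cyp20a1*, whose substrate is unknown, differed by −0.04 in both probes.

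The partners and regulators of these enzymes were described by 11 lists, chosen with earlier results of these data known. Their shares of calls, here and list by list below, may be favoured by that choice. Of their 154 tested probes 34 were called at an unadjusted p below 0.05 (22.1%, against 11.9% of all probes tested), 16 higher and 18 lower in HFD, and none passed the adjustment. With the slide row as a term 17 were called, where 7.74% of all probes tested were. Without HFD 3, 22 were, where 10.3% of all probes tested were. Electron supply had 4 of 16 probes called. *Cyb5*, cytochrome b5 (−0.32, SE 0.07), and the mitochondrial donors *Fdx1* (−0.21, SE 0.08, by 1 of 2 probes) and *Fdxr* (−0.24, SE 0.08) were lower. *Cyb5b*, the cytochrome b5 of the mitochondrial outer membrane, was higher by 1 of 2 probes (0.19, SE 0.07), with −0.02 in the other.

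The PAR bZIP factors, clock-controlled activators of CYP genes in liver, had 3 of 5 probes called lower, against 6.63% of all tested. *Hlf* stood at 1.41, 1.40 and 1.43 in ND and 1.09, 0.94 and 1.04 in HFD, a difference of −0.39 (SE 0.07, limma adjusted p = 0.158). *Tef* differed by −0.38 (SE 0.09) and *Dbp* by −0.34 (SE 0.13) in the probe called and −0.31 (SE 0.16) in the other. *Nfil3*, which opposes them, differed by 0.01. The site TTATGTAA of these factors occurred on either strand in 0 of 81 windows of the cytochrome P450 genes and in 0.8% of all windows, and the nuclear receptor core AGGTCA in 23.5% against 14.0%. Of the 28 tested genes with a window, 2 held AGGTCA and 12 held GCGTG, where 14.0% and 28.2% of all windows did. A gene was counted if any of its windows held the site.

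Of 17 tested probes of PPARA targets other than *Cyp4a*, 7 were called higher and 0 lower. Over all probes tested, 5.24% were called higher and 6.63% lower. The median difference of the 17 was 0.25. *Acot1* differed by 1.56 (SE 0.29) and *Plin2* by 0.27. *Cpt1a* (0.52), *Ucp3* (0.50) and *Cpt1b* (0.35) were each called by 1 of 2 probes, and their other probes gave 0.23, 0.16 and 0.17. The nuclear receptors themselves had 4 of 21 probes called, against 11.9% of all probes tested. Both probes of *Rara*, a retinoic acid receptor, were higher (0.25 and 0.29). *Ppard* (−0.17) and the corepressor *Nr0b2* (−0.45, SE 0.14) were lower.

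Enzymes that act before and after the cytochromes P450 gave the other calls. *Ephx2*, the soluble epoxide hydrolase that opens the epoxides made by CYP2C and CYP2J, stood at 5.04, 5.12 and 4.95 in ND and 5.44, 5.69 and 5.60 in HFD. Every HFD heart lay above every ND heart, with a difference of 0.54 (SE 0.09, limma adjusted p = 0.155). *Ephx1*, its microsomal kin, was higher by 0.21 (SE 0.06) in 1 of 2 probes, and *Alox5ap* (−0.28) and *Ptges* (−0.16), of leukotriene and prostaglandin synthesis, were lower. The conjugation enzymes had 8 of 26 probes called lower and 1 higher, against 6.63% and 5.24% of all probes tested. Both probes were called lower for *Gsta3* (−0.45 and −0.54), *Mgst1* (−0.26 and −0.25) and *Sult1a1* (−0.51 and −0.52), as were 2 of 3 for *Gstm2* (−0.27 in each). *Star* (0.55), *Hsd17b4* (0.21) and the mineralocorticoid receptor *Nr3c2* (0.77) were higher among the steroid genes. This *Star* probe was well above background in 4 hearts and was tested through HFD only, so its difference was favoured by the choice. The other *Star* probe was well above background in no heart, with means of −5.75 in ND and −5.73 in HFD. *Ptgis* and *Tbxas1*, prostacyclin and thromboxane synthase and themselves cytochromes P450 under other names, differed by −0.04 and −0.48 and were not called.

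**Figure D5:**
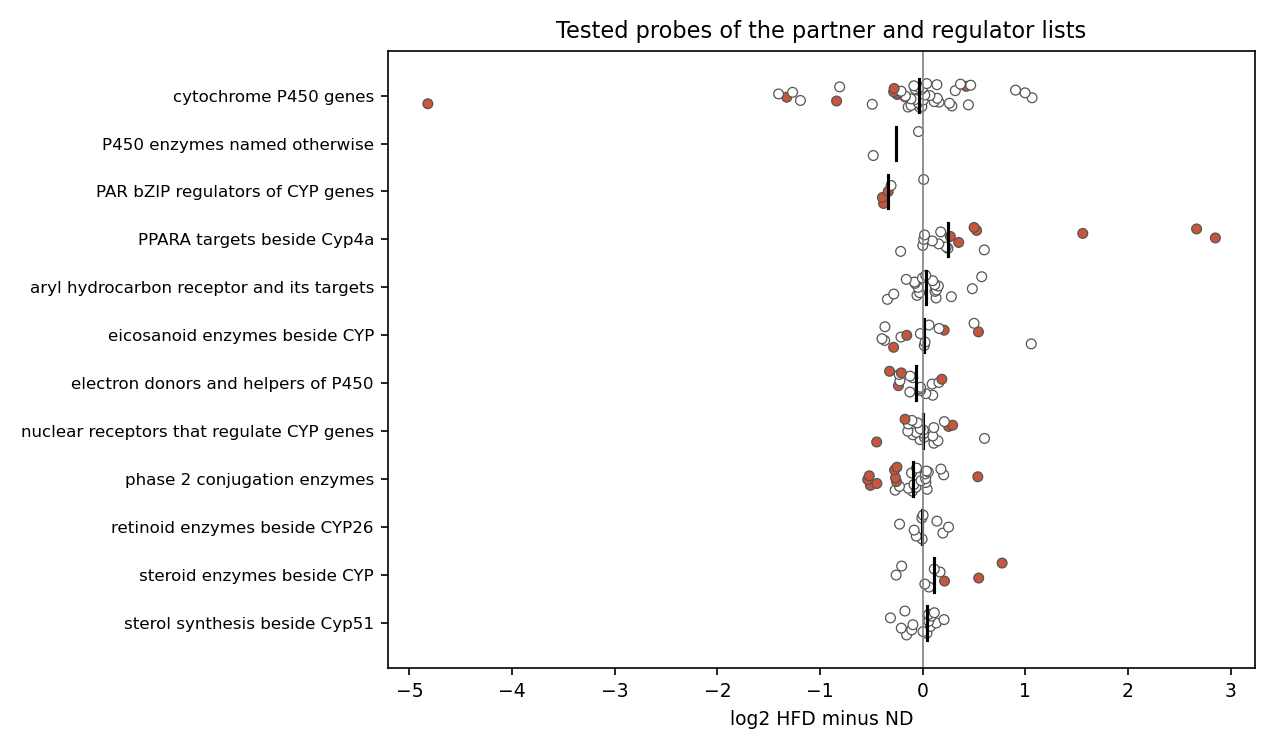
Difference between diets (horizontal axis, log2 HFD minus ND) of every tested probe, 1 point each, in the cytochrome P450 genes and the 11 lists (rows); red points had an unadjusted p below 0.05 in limma and black bars are medians. The PPARA targets have 7 red points, all to the right of 0, the aryl hydrocarbon receptor list has none, and Cyp1a1 is the point at the far left.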

How the data were processed

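The authors deposited spot intensities of 6 arrays, background-subtracted within each array by Agilent Feature Extraction 10.7 (10.7.1.1 per the file headers) and not normalized between arrays, beside a matrix of log2 values. Those log2 values followed a quantile normalization of the same intensities within a median difference of 0.00188 on any array and served as an alternative. Positions are on mm9 per the file headers. Gene names are the array's own, and of 121 probes 117 matched RefSeq by accession, 6 of them under another symbol. Exon and UTR positions of probes were not analysed here. Some genes of the lists are counted but not reported here by name.

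Control spots and spots marked as outliers were left out, spots of a probe were averaged, and log2 intensity was taken relative to the 75th percentile of the array. A probe was tested where every heart of at least 1 diet was well above background and at least 2 hearts of either diet had a value, which left 27590. The diets were compared with limma 3.58.1 in R 4.3.3 (linear model, moderated variances, two-sided), and p-values were adjusted by Benjamini-Hochberg over all probes tested. Tables were handled with the R packages jsonlite 2.0.0 and data.table (1.17.8), and plots with Python 3.11.15, matplotlib 3.10.9, pandas 2.3.3 and numpy 2.4.6. The R package statmod 1.5.0 was also present. The gene lists are described by counts and medians. The members, classes and lists were chosen with earlier results of these data known. Values per heart are given for *Cyp1a1* and for members at an unadjusted p below 0.05, and list genes are named at that p. Other genes named were chosen after their values were seen. The code was tested on simulated data.

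Nothing in the labels says more of the separate animals. The limma p-values set a diet difference against the spread between hearts of the same diet, moderated over all probes tested, and hold for these 6 samples. Arrays of a diet correlated at 0.990 to 0.995 (Pearson) and none repeated another. Deviations from the diet means correlated at −0.15, 0.15 and 0.19 between hearts of the same number, so numbers were not taken as pairs. The alternatives were quantile normalization, normexp (offset 50), all probes without a filter, a filter on all 6 arrays, the authors' log2 values, the methods' t-test, robust variances with an intensity trend, weights for arrays, a replicate block, slide row as a term, row 2 alone, outlier spots kept, each heart left out in turn, and probes averaged by gene.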

Additional observations from a re-analysis of the deposited data

How the results depend on the processing

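The 3 hearts per diet limit every value, and the sizes of dim probes are imprecise. That of *Cyp1a1* depends on the floor or the background correction used. *Cyp1a1* kept its direction in the 18 settings that could test it (−5.39 to −1.83) and passed the adjustment only with an intensity trend and robust variances (−4.82, adjusted p = 0.0175), which then called 1 cytochrome P450 probe after adjustment against 0 in the analysis reported and in every other setting. It had no value where only probes above background in every heart were kept. At an unadjusted p below 0.05 the 8 calls became 5 with the methods' t-test and with the slide row as a term, and 12 at most, with array weights. Over all probes tested 11.4%, 7.74% and 16.2% were called in these 3 settings, against 11.9% in the analysis reported. Leaving out 1 heart gave 5 to 11 calls, the 5 without HFD 1, where 7.81% to 12.6% of all probes tested were called. Calls that were also 2-fold numbered 1 with the methods' t-test and under that stricter filter, 4 with array weights, and 1 to 3 without 1 heart. The 34 list calls became 17 with the slide row as a term, where the share over all probes fell as well, and 22 to 37 without 1 heart. Well above background, 37 probes in all 6 hearts compare with 45 in every heart of 1 diet, 64 in at least 1 heart and 57 by the software's looser mark of positive and significant signal on all 6 arrays. Averaging both *Cyp2u1* probes turned the direction (0.0547). With the replicate number as a block, 10 of the 45 were called and 0 after adjustment, and 6 of the 8 were kept; in the settings as a whole the calls of *Cyp4f18* (A_55_P2083411), *Cyp2t4*, *Cyp26b1* and *Cyp2u1* were lost in 9, 6, 6 and 6 of 19, and the cause was not tested.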
